A study of Mus musculus with 47 samples.

Results

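The genes described here are 10 enzymes of threonine, glycine and serine metabolism and of the folate-bound carbon units that this metabolism feeds: Tdh, Gcat, Gldc, Phgdh, Psat1, Psph, Shmt1, Shmt2, Mthfd1 and Mthfd2. They were chosen by symbol, and each of the 10 was found as 1 row among the 22632 genes of a deposited expression table of 47 mouse libraries. The libraries came from reprogramming cells, made from secondary mouse embryonic fibroblasts (fibroblasts in which doxycycline starts reprogramming), and from feeder cells. There were 4 clones titled SC and 4 titled SI, names that the labels do not spell out. Both classes were sampled after 14 days (d14) and 21 days (d21) with doxycycline, at d22 and d23, which had 21 days with the drug and then 1 or 2 days without it, and after 27 days with it (d27). The SC clones were sampled once more as iPS cells, with 21 days of drug and 6 days without. The 3 feeder libraries were mouse embryonic fibroblasts with 0 days of doxycycline. Each clone gave 1 library per time, so a class is 4 clones, and strain and genotype are not stated. The p-values within and between the classes measure the spread between these clones. Against feeders they also rest on the spread between the 3 feeder libraries, which come from no clone.

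All levels are RPKM (reads per kilobase of transcript, scaled to the reads of the library), so that genes of different length can be set side by side. Tests were made with limma on log2(RPKM + 1), with Benjamini-Hochberg adjustment over all genes tested and a threshold of 0.05. A log2 fold is therefore on the log2(RPKM + 1) scale and understates the change of genes with low levels.

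The markers of the labelled cell types were present, and they moved with the groups. The summed level of 11 pluripotent markers ran from 990 to 1655.5 RPKM in SC iPS cells and from 0.27 to 1.22 RPKM in feeders, where no marker of that list reached 1 RPKM. The sum of 13 fibroblast markers was 839 to 2122.3 RPKM in SC iPS cells and 9117.9 to 9625.0 RPKM in feeders. At d23 it was 1009.4 to 5578.7 RPKM in SC clones and 6510.3 to 11236.4 RPKM in SI clones, with SC2 the highest SC clone and SI3 the highest SI clone and above every feeder library. The sum of 12 proliferation markers at d23 was 213.2 to 804.1 RPKM in SC clones, lowest in SC2, and 47.9 to 132.0 RPKM in SI clones, with 91.5 to 100.2 RPKM in feeders. The sum of 8 macrophage markers at d23 was 76.2 to 150.7 RPKM in SC clones and 174.6 to 331.5 RPKM in SI clones, and that of 8 epithelial markers was 433.2 to 1354.6 RPKM in SC clones and 118.4 to 2327.2 RPKM in SI clones. Fewer cells of a type and less RNA per cell cannot be told apart in these bulk libraries, and the part of the cell mixture in the results that follow was not tested.

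Threonine dehydrogenase (Tdh) is the mitochondrial enzyme that oxidises threonine, and glycine C-acetyltransferase (Gcat) then splits the product into glycine and acetyl-CoA. Mouse embryonic stem cells are known for high Tdh and for their need of threonine in the medium. Glycine decarboxylase (Gldc) is the P protein of the mitochondrial glycine cleavage system, which passes a carbon of glycine to tetrahydrofolate. Phgdh, Psat1 and Psph are the successive enzymes that make serine from a glycolytic intermediate. Serine hydroxymethyltransferase turns serine into glycine and loads the released carbon onto tetrahydrofolate, in the cytosol as Shmt1 and mainly in mitochondria as Shmt2. Mthfd1 in the cytosol and Mthfd2 in mitochondria interconvert these folate forms, which supply purine, thymidylate and methionine synthesis.

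In the GENCODE M21 annotation of GRCm38, the protein-coding genes lie as follows. Tdh is at chr14:63492347-63509092 on the minus strand, Gcat at chr15:79030874-79038353 on the plus strand and Gldc at chr19:30098447-30175429 on the minus strand. Phgdh is at chr3:98313170-98339990, Psat1 at chr19:15904678-15947337 and Psph at chr5:129765558-129787449, all on the minus strand. Shmt1 is at chr11:60788104-60811718 and Shmt2 at chr10:127517123-127522444, both on the minus strand. Mthfd1 is at chr12:76255298-76319803 on the plus strand and Mthfd2 at chr6:83305691-83325908 on the minus strand. Whether the authors' counting used strand is not given in the sources used here. By this annotation Psph shares 452 exon bases with Cct6a, Shmt1 shares 184 with Smcr8, Tdh shares 66 with Gm17232, Mthfd1 shares 37 with Gm47525 and Shmt2 shares 32 with Ndufa4l2, each on the opposite strand. A second Gcat entry of the annotation shares 1132 bases with Gcat on its own strand, and Phgdh has a processed pseudogene, Phgdh-ps1, so reads of these pairs may not be separable.

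Upstream sequence was given by RefSeq (GRCm38.p6) for 9 of the 10 genes, all but Tdh, with a pair of start sites for Psat1. The 250 bases before the start are shown for Gcat, Gldc and Shmt1, whose levels fell in SI clones after the drug was withdrawn, and for Mthfd2, whose level did not. For Shmt1 and Mthfd2 the RefSeq start lies inside the GENCODE gene span given above, and so do the bases shown. Capitals mark a GC box (GGGCGG) or a CCAAT box (CCAAT) read on either strand, so that CCGCCC and ATTGG are their complements.
Gcat (chr15:79030624-79030873, plus strand): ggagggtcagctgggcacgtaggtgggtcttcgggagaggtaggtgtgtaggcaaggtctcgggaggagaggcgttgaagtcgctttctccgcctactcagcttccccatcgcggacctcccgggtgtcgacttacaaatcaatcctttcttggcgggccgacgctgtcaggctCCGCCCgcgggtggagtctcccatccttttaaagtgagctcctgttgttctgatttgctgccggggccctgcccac
Gldc (chr19:30175442-30175691, minus strand): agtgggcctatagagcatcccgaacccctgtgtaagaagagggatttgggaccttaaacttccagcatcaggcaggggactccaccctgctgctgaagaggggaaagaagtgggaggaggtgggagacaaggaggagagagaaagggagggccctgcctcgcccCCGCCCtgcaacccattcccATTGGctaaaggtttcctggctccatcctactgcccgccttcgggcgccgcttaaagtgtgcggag
Shmt1 (chr11:60811266-60811515, minus strand): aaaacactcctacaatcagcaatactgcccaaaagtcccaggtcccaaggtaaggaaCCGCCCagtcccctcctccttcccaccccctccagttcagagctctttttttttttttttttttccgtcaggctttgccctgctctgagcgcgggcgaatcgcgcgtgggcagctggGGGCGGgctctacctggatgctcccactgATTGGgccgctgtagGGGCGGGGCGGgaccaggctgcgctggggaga
Mthfd2 (chr6:83317605-83317854, minus strand): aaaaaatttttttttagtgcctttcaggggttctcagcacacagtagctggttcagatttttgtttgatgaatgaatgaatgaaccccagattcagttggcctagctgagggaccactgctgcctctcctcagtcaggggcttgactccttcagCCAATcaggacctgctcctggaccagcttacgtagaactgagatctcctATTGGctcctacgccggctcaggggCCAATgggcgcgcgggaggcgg
Gcat holds 1 GC box and no CCAAT box, Gldc 1 of each, Shmt1 4 GC boxes and 1 CCAAT box, and Mthfd2 3 CCAAT boxes and no GC box. In Shmt1 the last pair of GC boxes overlaps by 1 base. Of 32851 mouse promoters of this length, 32.7% held a GC box and 33.8% a CCAAT box, so neither is rare. No promoter of the 9 genes held TGATGNAA, the core of the element bound by ATF4 with C/EBP factors (3.45% of all promoters), CACGTG, the E-box (6.02%), or ATGCAAAT, the octamer (1.6%), on either strand. The GC box, the CCAAT box and the octamer were searched for after the other motifs had given no match. These matches describe letters and not binding.

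Tdh had both high levels and levels at or near 0. In SC iPS clones 1 to 4 its level was 58.7, 30.5, 40.4 and 37.4 RPKM, and in feeders it was 0.02, 0.0 and 0.02 RPKM. In SC clones it was 18.1, 20.6, 29.3 and 14.9 RPKM at d14, 26.0, 13.4, 23.5 and 38.3 RPKM at d21, 18.7, 1.95, 27.2 and 37.3 RPKM at d22, 30.1, 6.02, 11.3 and 20.3 RPKM at d23, and 33.5, 23.6, 43.1 and 47.3 RPKM at d27. SC2 was the lowest SC clone at each time except d14, and its d22 value lay under every other SC value. In SI clones 1 to 4 Tdh was 15.8, 10.1, 8.59 and 24.0 RPKM at d14, 9.68, 15.8, 12.6 and 17.8 RPKM at d21, 0.71, 0.39, 0.02 and 0.64 RPKM at d22, 0.23, 0.0, 0.02 and 0.27 RPKM at d23, and 22.5, 29.2, 10.8 and 27.7 RPKM at d27. By group mean, 9 groups ran from 41.8 RPKM in SC iPS cells to 14.0 RPKM in SI clones at d21 with overlapping neighbours, and a gap without overlap lay between these and SI clones at d22 (0.44 RPKM). From the step between RPKM values, 3 reads of Tdh would have had a level of 0.0117 to 0.0425 RPKM in the 42 libraries where the step was found. The feeder values and those of SI3 at d22 and of SI2 and SI3 at d23 are thus at the level of a few reads. Tdh at 0.0 is a listed value and not a proof of absence.

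Gldc followed a similar order, but with a later rise. In SC iPS clones it was 45.0, 19.7, 50.5 and 48.6 RPKM, and 0.16, 0.19 and 0.12 RPKM in feeders. In SC clones 1 to 4 Gldc was 9.12, 9.15, 14.2 and 4.98 RPKM at d14, 32.7, 16.9, 44.2 and 54.6 RPKM at d21, 17.3, 3.96, 33.2 and 46.5 RPKM at d22, 31.3, 7.01, 49.6 and 67.4 RPKM at d23, and 28.1, 17.8, 40.7 and 43.3 RPKM at d27. In SI clones it was 28.4, 2.08, 1.53 and 9.73 RPKM at d14, 22.2, 12.02, 14.3 and 15.7 RPKM at d21, 4.05, 2.29, 0.94 and 2.82 RPKM at d22, 1.92, 1.01, 0.35 and 2.13 RPKM at d23, and 28.6, 16.5, 26.7 and 20.9 RPKM at d27. Every SI clone was thus lower at d22 and at d23 than at d21, and at those times the SC clones other than SC2 were at 17.3 RPKM or more. In the order of means, SC d14 (9.35 RPKM) did not overlap with SI d22 (2.53 RPKM), nor SI d23 (1.35 RPKM) with feeders (0.157 RPKM).

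Gcat, the next enzyme after Tdh, was low throughout. Its group means ran from 12.02 ± 2.39 RPKM in SI clones at d27 (SD, n = 4) to 1.61 ± 0.22 in feeders (SD, n = 3) and 1.23 ± 0.19 in SI clones at d23 (SD, n = 4), the last pair without overlap. Unlike Tdh, it was not highest in SC iPS cells, where the clones had 10.5, 5.03, 7.30 and 7.36 RPKM. Shmt1 and Mthfd1, the cytosolic enzymes, were both highest in SC iPS cells, at 42.7 ± 12.6 and 58.9 ± 10.6 RPKM (SD, n = 4). Shmt1 was lowest in feeders, at 2.26, 2.5 and 2.18 RPKM, and Mthfd1 likewise, at 11.7, 11.8 and 12.1 RPKM, though both ranges overlapped with those of SI clones at d23.

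The serine synthesis genes and Mthfd2 had another order. Phgdh was highest in feeders, at 25.3, 30.2 and 29.9 RPKM, without overlap with the next group, SI clones at d27, at 18.9 to 21.6 RPKM. The feeder means of Psph and Mthfd2 were also the highest of the 12, with 14.5 to 14.97 RPKM for Psph and 24.7 to 27.8 RPKM for Mthfd2, but these ranges overlapped with the next group. Psat1 and Shmt2 were highest in SI clones at d27, where Psat1 had 63.5 to 79.6 RPKM and Shmt2 43.0 to 49.3 RPKM, each overlapping with the next group. The sum of the 10 levels had a median of 390.0 RPKM in SC iPS clones, 286.2 in SC clones at d23, 94.7 in SI clones at d23 and 169.5 in feeders.

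**Figure D1:**
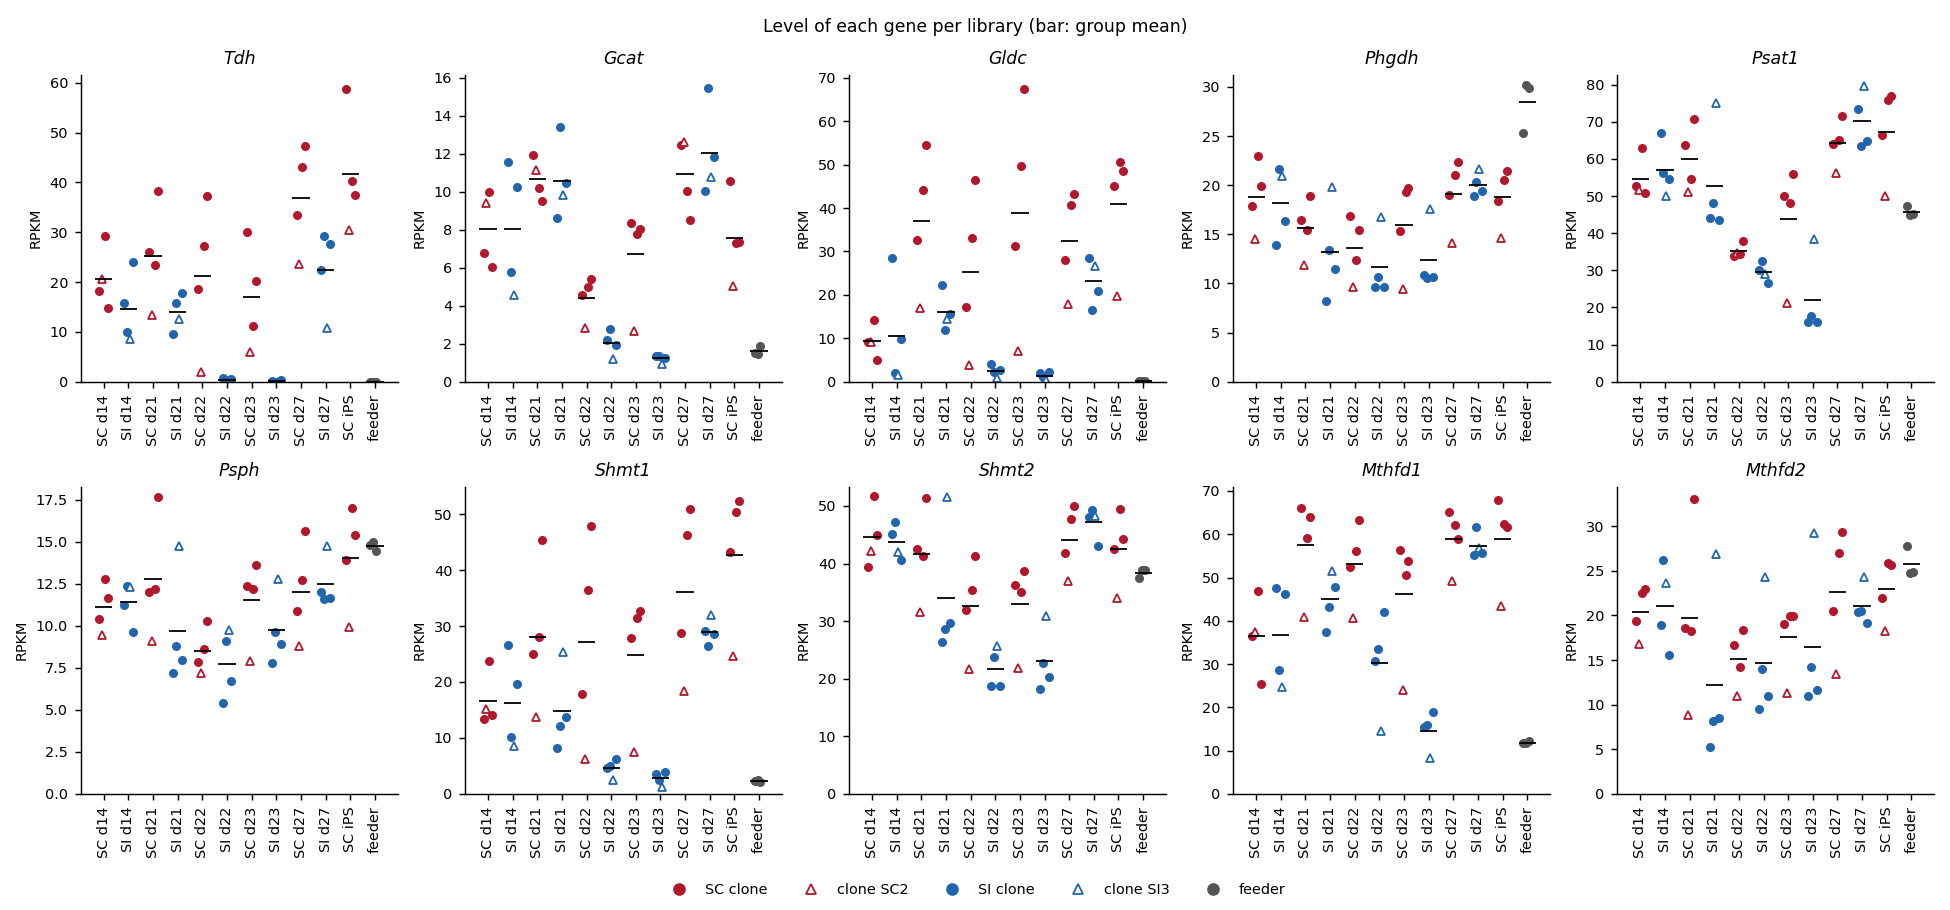
Level of each of the 10 genes in RPKM (linear axis from 0) in all 47 libraries by group, with points for libraries, bars for group means, and open triangles for clones SC2 and SI3. Tdh, Gldc, Gcat, Shmt1 and Mthfd1 are low in SI clones at d23 and in feeders, while Phgdh is highest in feeders at 25.3 to 30.2 RPKM.

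SC iPS cells against feeders set the reprogrammed state beside fibroblasts. Of the 10 genes, 6 were higher in SC iPS cells, 1 was lower and 3 did not pass, where limma called 79.9% of the 12210 genes tested, 41.2% higher and 38.8% lower. Tdh was higher by log2 5.36 ± 0.19 SE (adjusted p = 3.23e-07), Gldc by 5.09 ± 0.30 (adjusted p = 2.8e-06) and Shmt1 by 3.67 ± 0.24 (adjusted p = 4.6e-06). Mthfd1 was higher by log2 2.20 ± 0.15, Gcat by 1.68 ± 0.20 and Psat1 by 0.53 ± 0.15. Phgdh was lower by log2 -0.58 ± 0.14 (adjusted p = 0.0044), at 18.4, 14.6, 20.6 and 21.4 RPKM in SC iPS clones. Psph (log2 -0.09), Shmt2 (0.13) and Mthfd2 (-0.17) did not pass. The groups of these 7 genes did not overlap, nor did those of 40.4% of the genes tested in the higher direction and 40.0% in the lower. Without SC2, Shmt2 passed too.

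With the drug present, the SC clones gained Gldc between d14 and d21. It was higher at d21 by log2 1.84 ± 0.37 (adjusted p = 0.00405), and the lowest d21 clone (16.9 RPKM) lay above the highest d14 clone (14.2 RPKM), the only gene of the 10 without overlap (20.9% of all genes were higher so). Mthfd1 was also higher, with 66.1, 41.0, 59.2 and 64.0 RPKM at d21, against 36.4, 37.4, 46.8 and 25.4 RPKM at d14 (log2 0.65 ± 0.20, adjusted p = 0.0294). These 2 of 10 genes stand beside 42.5% of all genes called in that comparison. Mthfd1 did not pass when any of SC1 or SC4 at either time, SC2 at d14 or SC3 at d21 was left out (adjusted p up to 0.0768), and Gldc passed without each library in turn. Without the filter on low values Gldc alone passed. Tdh did not pass, at log2 0.23 (adjusted p = 0.556). Gcat passed too without SC3 at d14, and Shmt1 without SC2 at d21.

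In SI clones the same interval gave 0 of 10 calls and 0 of 11738 over all genes, with 1 of the 10 and 2313 of all genes at an unadjusted p under 0.05. Gldc differed by log2 1.24 ± 0.71 (adjusted p = 0.307), Mthfd2 by -0.96 ± 0.42 (adjusted p = 0.251), Phgdh by -0.47 and Tdh by 0.01. The SI clones were unlike each other at d14. SI1 and SI4 had Gldc at 28.4 and 9.73 RPKM, and SI2 and SI3 at 2.08 and 1.53 RPKM, while the fibroblast marker sum was 1996.3 and 2069.9 RPKM in SI1 and SI4 and 6698.6 and 6039.8 RPKM in SI2 and SI3. At d21 SI3 stood apart for Mthfd2, at 26.9 RPKM, against 5.22, 8.20 and 8.55 RPKM in the other SI clones. Without SI3 at d21, Mthfd2 and Shmt2 passed.

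From d21 to d27 with the drug, no gene of the 10 passed in either class. In SC clones 1 of 11804 genes was called (0.00847%), with 1363 genes but none of the 10 at an unadjusted p under 0.05. Gldc was at log2 -0.15. A fit with clones as a block called 11.3% of all genes, and in it Tdh was higher at d27 by log2 0.57 ± 0.11 (adjusted p = 0.0363) and Phgdh by 0.27 ± 0.06 (adjusted p = 0.045). Tdh was higher at d27 in 4 of 4 SC clones. In SI clones 0 of 11590 genes were called, although 7 of the 10 and 3566 of all genes had an unadjusted p under 0.05. There Shmt1 had 29.0, 26.4, 31.9 and 28.6 RPKM at d27, against 8.18, 12.1, 25.3 and 13.7 RPKM at d21 (log2 1.02 ± 0.27, adjusted p = 0.0929). The groups did not overlap for Shmt1 and Mthfd1, as for 9.56% of all genes in that direction. Mthfd2 was at log2 0.99 (adjusted p = 0.138), Phgdh at 0.62, Tdh at 0.60 and Gldc at 0.51. This count rested on SI3 at d21: without that library 7 of the 10 were higher at d27, all but Tdh, Gcat and Gldc, and without clone SI3 at both times 8 were, with Tdh added. Calls over all genes also moved widely with the library left out, as the last section gives. These counts are thus no result about the 10 genes alone.

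While the drug was present, no gene of the 10 passed between the classes. At d14, 0 of 10 genes and 0 of 11714 over the table were called between SC and SI clones, with 0 of the 10 and 169 of all genes at an unadjusted p under 0.05. Tdh was at log2 0.54, Gldc at 0.48 and Shmt1 at 0.13, each with an adjusted p of 0.999. At d21, 0 of 11757 genes were called, with 1572 at an unadjusted p under 0.05, among them Gldc (log2 1.07 ± 0.34, adjusted p = 0.317) and Tdh (log2 0.76 ± 0.30, adjusted p = 0.361). Shmt1 was at log2 0.87 and Mthfd2 at 0.76. Without SC2 at d21, Gldc was higher in SC clones (adjusted p = 0.0319). At d27, 0.634% of 11513 genes were called and 0 of the 10, none of which reached an unadjusted p under 0.05 (2661 of all genes did). Tdh was at log2 0.73 (adjusted p = 0.226), Gldc at 0.42 and Shmt1 at 0.21.

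After 1 day without the drug, 5 of 10 genes were lower in SI clones than at d21, the pair of threonine enzymes among them, beside 37.9% of 11878 genes called and 18.8% called lower. Tdh fell by 3.38 ± 0.22 on the log2 scale (adjusted p = 0.00012), Gldc by 2.32 ± 0.29 (adjusted p = 0.00101), Gcat by 1.95 ± 0.19 (adjusted p = 0.00043), Shmt1 by 1.45 ± 0.33 and Psat1 by 0.78 ± 0.18. As a share of the same clone at d21, Tdh was at 7.33%, 2.47%, 0.159% and 3.59% in SI1 to SI4. The value of SI3, 0.02 RPKM, is at the level of a few reads. Gcat was at 12.1% to 25.4%, Gldc at 6.56% to 19.1%, Shmt1 at 9.84% to 57.1% and Psat1 at 38.6% to 68.7%, with SI3 the lowest clone for each. Mthfd1 did not pass, at 30.7, 33.4, 14.6 and 41.9 RPKM at d22, against 37.3, 43.2, 51.5 and 47.9 RPKM at d21 (log2 -0.65, adjusted p = 0.102). Shmt2 passed as well when clones were a block, lower by log2 -0.58 ± 0.13 (adjusted p = 0.0098), beside 57.2% of all genes. Mthfd2 was higher at d22 in SI1, SI2 and SI4, at 182%, 171% and 128% of d21, and at 90.5% in SI3. It passed only when SI3 at d21, or clone SI3 at both times, was left out.

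In SC clones, 2 of 10 were lower at d22, beside 8.17% of 11949 genes called and 4.75% called lower. Gcat had 4.54, 2.81, 4.97 and 5.38 RPKM at d22, against 11.9, 11.1, 10.2 and 9.53 RPKM at d21, so the groups did not overlap (log2 -1.13 ± 0.17, adjusted p = 0.0151). Psat1 had 33.8, 34.8, 34.3 and 37.9 RPKM at d22, against 63.7, 51.2, 54.7 and 70.9 RPKM at d21 (log2 -0.75 ± 0.12, adjusted p = 0.0178), likewise without overlap. Of all genes 10.2% were lower without overlap. Both had an adjusted p above the threshold without SC3 at d21 or without SC1 at d22, and Psat1 also without SC1 at d21, SC3 at d22 or clone SC2, with adjusted p up to 0.0714. With each clone set against itself in a block, 5 passed, beside 37.3% of all genes: Gldc fell by 0.84 ± 0.25 (adjusted p = 0.0415), Psph by 0.51 ± 0.09 and Shmt2 by 0.36 ± 0.08 on the log2 scale in addition. Tdh did not pass, at 71.9%, 14.5%, 116% and 97.6% of d21 in SC1 to SC4 (log2 -0.64, adjusted p = 0.641), and Gldc without the block was at log2 -0.84 (adjusted p = 0.482).

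**Figure D2:**
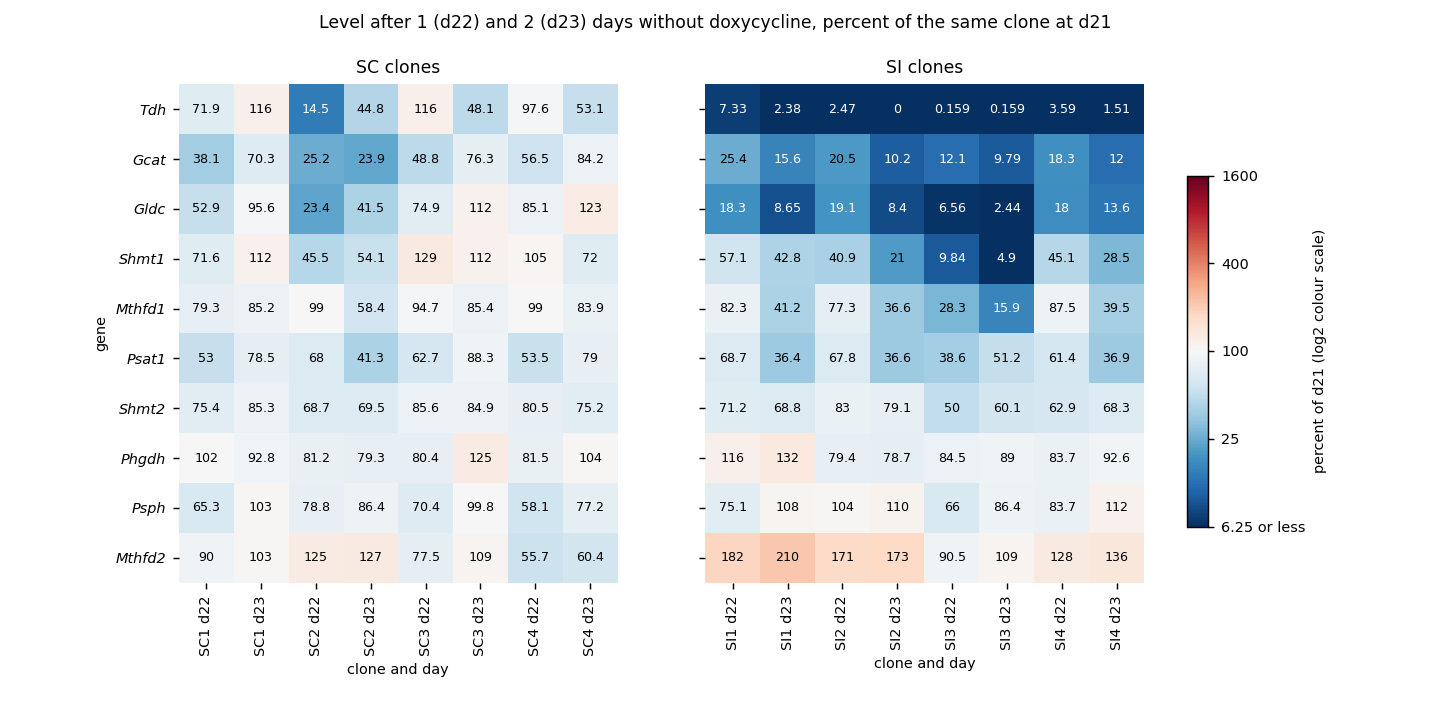
Level of each gene at d22 and d23 as a percent of the same clone at d21, SC clones left and SI clones right, with the value printed in each cell and colour on a log2 scale. Tdh is at 7.33% or less in every SI library and at 14.5% or more in every SC library.

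The marker sums moved with the days in SI clones. From d21 through d22 to d23 the fibroblast sum was 1422.0 to 3626.8, 3429.5 to 8948.8 and 6510.3 to 11236.4 RPKM, the pluripotent sum 641.0 to 1484.9, 58.0 to 273.2 and 10.6 to 135.6 RPKM, and the proliferation sum 354.9 to 458.0, 113.7 to 259.7 and 47.9 to 132.0 RPKM. Over the same days the epithelial sum was 74.0 to 440.3, 180.0 to 1257.5 and 118.4 to 2327.2 RPKM, lowest each time in SI3. The macrophage sum was 53.9 to 122.9, 148.1 to 387.0 and 174.6 to 331.5 RPKM. Of the 11 pluripotent markers, 5 to 9 reached 1 RPKM in SI clones at d21. Most of their mean sum there was Pou5f1, at 973.3 ± 312.2 RPKM at d21 and 67.5 ± 42.1 RPKM at d23 (SD, n = 4 each). Sox2 had 124.0 ± 33.8 and 2.12 ± 0.51 RPKM. Pou5f1 and Sox2 are also reprogramming factors, and these values do not separate a drug-driven copy from the cell's own gene. The part of such copies in the pluripotent sum was not tested. Utf1 did not pass, at 1.78 ± 0.79 and 3.28 ± 2.16 RPKM. Without each library or clone in turn, 4 to 6 of these markers were called lower and 0 to 2 higher. The part of the marker sums in the changes of the 10 genes was not tested.

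After 2 days without the drug, 6 of 10 genes were lower in SI clones than at d21, beside 54.6% of 11796 genes called and 32.0% called lower. Tdh fell by 3.71 ± 0.19 on the log2 scale (adjusted p = 1.45e-05), Gldc by 2.90 ± 0.29 (adjusted p = 0.000153), Gcat by 2.36 ± 0.14 (adjusted p = 2.78e-05), Shmt1 by 2.01 ± 0.34, Mthfd1 by 1.61 ± 0.23 and Psat1 by 1.28 ± 0.30. The libraries of these 6 did not overlap between the times, as was true of 29.6% of all genes in that direction. Tdh was at 0% to 2.38% of d21, Gldc at 2.44% to 13.6%, Gcat at 9.79% to 15.6% and Shmt1 at 4.90% to 42.8%. Psat1 was at nearly the same share in SI1, SI2 and SI4, 36.4%, 36.6% and 36.9%, and at 51.2% in SI3. Phgdh (log2 -0.05), Psph (0.04), Shmt2 (-0.52) and Mthfd2 (0.55) did not pass. In a fit with clones as a block, which called 63.4% of all genes, Shmt2 was lower by log2 -0.52 ± 0.10 (adjusted p = 0.00384) and Mthfd2 higher by 0.55 ± 0.15 (adjusted p = 0.0187), at 210%, 173%, 109% and 136% of d21 in SI1 to SI4. The 6 calls made without the block held without each library in turn.

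In SC clones 0 of 10 passed at d23 against d21, with 1 of the 10 (Gcat) and 2322 of all genes at an unadjusted p under 0.05, and 3.79% of 11975 genes called. Gcat was at 70.3%, 23.9%, 76.3% and 84.2% of d21 in SC1 to SC4, and its groups did not overlap (log2 -0.69, adjusted p = 0.241; 9.37% of all genes were lower without overlap). Tdh was at log2 -0.68 ± 0.47 (adjusted p = 0.498), Psat1 at -0.52 ± 0.29 and Gldc at -0.19 ± 0.65 (adjusted p = 0.914). Gldc was at 95.6%, 112% and 123% of d21 in SC1, SC3 and SC4 and at 41.5% in SC2. SC2 was the lowest SC clone at d23 for each of the 10 genes.

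Set against each other at d22, SC clones were above SI clones for Tdh (log2 3.49 ± 0.70), Gldc (2.56 ± 0.64) and Shmt1 (2.05 ± 0.54) on average, yet none passed (adjusted p = 0.1 for each). limma called 0 of 11880 genes, with 7 of the 10 and 4140 of all genes at an unadjusted p under 0.05. Tdh, Gcat, Psat1 and Shmt1 were higher in SC without overlap, 4 of 10 beside 11.4% of all genes. The margin was small for Psat1, whose lowest SC clone had 33.8 RPKM and whose highest SI clone had 32.6 RPKM. Gldc overlapped by 1 clone, as SC2 had 3.96 RPKM and SI1 4.05 RPKM. Without SC2, 6 of 10 passed as higher in SC: Tdh (log2 4.30), Gldc (3.22), Shmt1 (2.59), Gcat (1.01), Mthfd1 (0.99) and Shmt2 (0.72), when 4147 of all genes were called.

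At d23, 5 of 10 genes were higher in SC than in SI clones and 0 were lower, beside 42.5% of 11805 genes called, 23.0% higher and 19.5% lower. Gldc was higher by log2 3.78 ± 0.62 (adjusted p = 0.0221) and Shmt1, at 28.0, 7.44, 31.4 and 32.7 RPKM in SC clones, against 3.50, 2.54, 1.24 and 3.91 RPKM in SI clones, by 2.64 ± 0.46 (adjusted p = 0.0221). Gcat had 8.37, 2.66, 7.77 and 8.02 RPKM in SC clones, against 1.34, 1.37, 0.96 and 1.26 RPKM in SI clones (log2 1.70 ± 0.29, adjusted p = 0.0221). Mthfd1 had 56.3, 23.9, 50.6 and 53.7 RPKM in SC clones, against 15.4, 15.8, 8.20 and 18.9 RPKM in SI clones (log2 1.58 ± 0.33, adjusted p = 0.0222). Tdh, with the smallest adjusted p of the 10 (0.0177), completed the 5, and none of them overlapped between the classes, as 21.2% of all genes did not in that direction.

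None of the serine synthesis genes passed at d23. Psat1 had 50, 21.2, 48.3 and 56.0 RPKM in SC clones, against 16.0, 17.6, 38.4 and 16.0 RPKM in SI clones (log2 0.97 ± 0.37, adjusted p = 0.0597), with SC2 and SI3 between the others. Shmt2 was at log2 0.50, Phgdh at 0.31, Psph at 0.21 and Mthfd2 at 0.16, and none passed. The 5 calls depended on which library was in the fit. Without SC2, 8 of 10 passed, with Psat1, Phgdh and Shmt2 added. Without SC1, Tdh alone passed, and without any of SC3, SC4, SI2, SI3 or SI4 none did, the adjusted p reaching 0.08. Without the filter on low values 0 of the 10 and 2 of all genes passed. The 42.5% of all genes rests on the libraries in the same way, with 2 to 9 genes of the table called without any of SC1, SC3, SC4, SI2, SI3 or SI4, 1835 without SI1 and 7978 without SC2. Over the fits that left out a library, Tdh stayed between log2 3.45 and 4.16 and Gldc between 3.40 and 4.43.

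**Figure D3:**
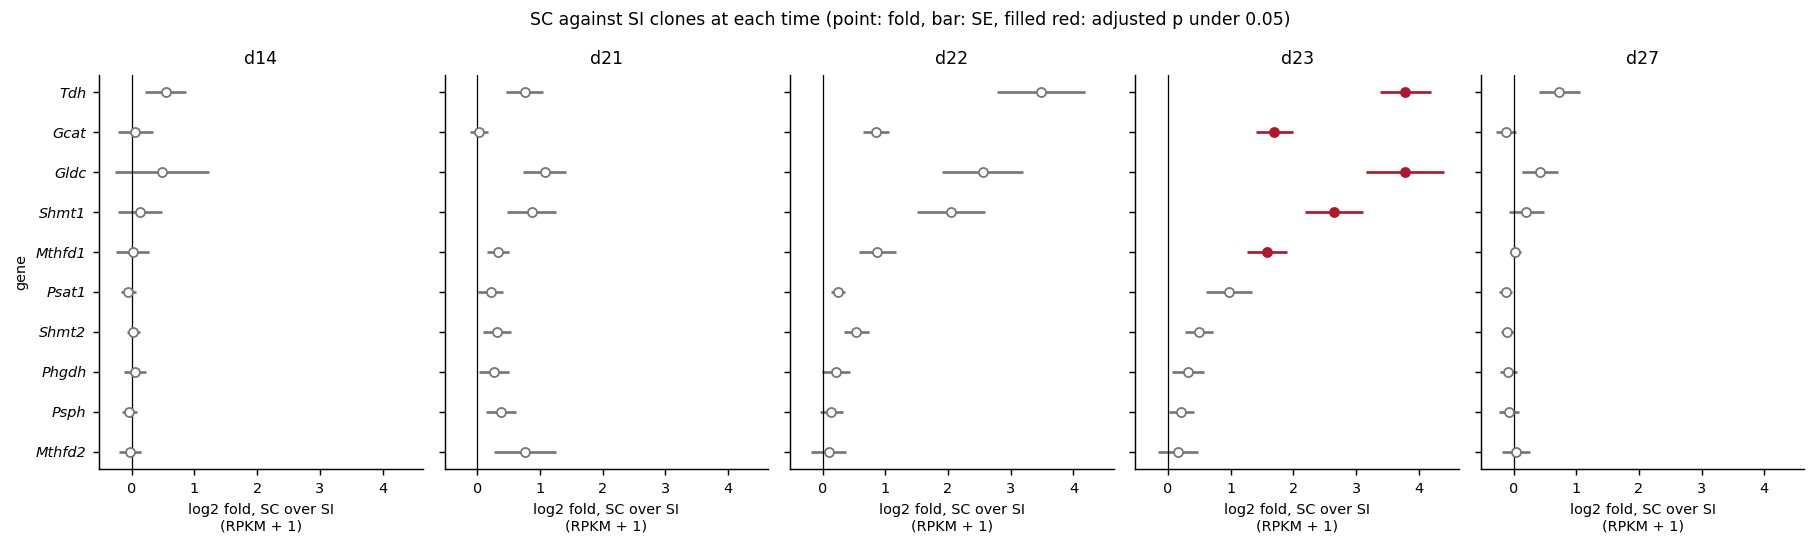
Difference between SC and SI clones in log2(RPKM + 1) for each gene at 5 times, with points for the fold, bars for its SE and filled red points for an adjusted p under 0.05. No fold exceeds log2 0.73 at d14 or d27, and 5 genes pass at d23, the highest at log2 3.78.

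The difference between the classes in their d23 against d21 changes was tested itself. Without regard to clones, 0 of 10 genes and 0 of 12714 over the table passed, with 5 of the 10 and 3237 of all genes at an unadjusted p under 0.05, and Tdh was at log2 3.03 ± 0.54 (adjusted p = 0.123), Gldc at 2.71 ± 0.76 (adjusted p = 0.127) and Shmt1 at 1.77 ± 0.65 (adjusted p = 0.14). Each clone was sampled at both times, and in a fit with clones as a block 6 of 10 passed, beside 23.2% of all genes. The change was more negative in SI clones by log2 3.03 ± 0.31 for Tdh (adjusted p = 0.0128), 2.71 ± 0.34 for Gldc (adjusted p = 0.0157), 1.77 ± 0.49 for Shmt1, 1.67 ± 0.32 for Gcat, 1.25 ± 0.29 for Mthfd1 and 0.76 ± 0.24 for Psat1 (adjusted p = 0.0482). Without the block, 6 of 10 passed when SC2 at d23 was left out, 5 when clone SC2 was left out at both times and 2 (Tdh and Gcat) when SI3 at d21 was. The 0 of 12714 does not hold for such fits, whose range of calls over all genes is in the last section.

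The step from d22 to d23, compared after the data had been seen, gave 0 calls among the 10 in either class. In SC clones 0 of 11994 genes were called, 1697 of them and 0 of the 10 at an unadjusted p under 0.05. Gldc was higher at d23 by log2 0.65 ± 0.09 with clones as a block (adjusted p = 0.0184), where 13.0% of all genes were called. Gcat (log2 0.44), Psph (0.39) and Tdh (-0.03) did not pass. In SI clones 1.74% of 11692 genes were called by adjusted p. At the looser rule of an unadjusted p under 0.05 there were 2 of 9 (Gcat and Mthfd1). The 1.74% is no measure for that count, and the share of all genes by the looser rule is not given here. The block by clone made 5 of 9 genes pass, beside 44.2% of all genes: Mthfd1 was lower at d23 by log2 -0.96 ± 0.07 (adjusted p = 0.000943), Gldc by -0.58 ± 0.10, Shmt1 by -0.57 ± 0.08 and Gcat by -0.41 ± 0.09, and Psph was higher by 0.31 ± 0.07. Tdh was too low in SI clones at these times to be tested. Without the block, 4 passed when clone SI3 was left out, 2 without SI3 at d22 and 1 without SI3 at d23. The 1.74% does not hold for such fits, whose range of calls over all genes is in the last section.

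SI clones at d23 were also set beside feeders. No SI library lay within the feeder range of the fibroblast sum: SI1, SI2 and SI4 had 6510.3 to 7744.4 RPKM and SI3 11236.4 RPKM, and feeders 9117.9 to 9625.0 RPKM. The epithelial sum was 118.4 to 2327.2 RPKM in SI clones and 5.48 to 5.64 RPKM in feeders, and the pluripotent sum 10.6 to 135.6 RPKM in SI clones and 0.27 to 1.22 RPKM in feeders. The part of these markers in the differences was not tested. Of 9 genes tested, Gldc was higher in SI clones, by log2 0.95 ± 0.28 (adjusted p = 0.0376), and 4 were lower, beside 35.8% of 11741 genes called, 21.2% higher and 14.6% lower. Tdh, at 0.0 to 0.27 RPKM in SI clones and 0.0 to 0.02 RPKM in feeders, was too low to be tested. Phgdh had 10.9, 10.6, 17.6 and 10.6 RPKM in SI clones, against 25.3, 30.2 and 29.9 RPKM in feeders (log2 -1.16 ± 0.18, adjusted p = 0.00692). Psat1 was lower by log2 -1.12 ± 0.29 (adjusted p = 0.025), with feeders at 47.4, 45.0 and 45.1 RPKM. Shmt2 had 18.2, 22.7, 31.0 and 20.3 RPKM in SI clones, against 37.5, 38.8 and 38.9 RPKM in feeders (log2 -0.74 ± 0.16, adjusted p = 0.0163). Psph was lower by log2 -0.57 ± 0.14 (adjusted p = 0.0242). Psat1 and Shmt2 in every SI clone were thus under both the same clone at d21 and the feeders. SI3, the clone with the highest fibroblast sum, was the nearest to feeders for Gldc, Phgdh, Psat1, Psph, Shmt2 and Mthfd2. For Gcat it was the farthest, at 0.96 RPKM, with the other SI clones at 1.26 to 1.37 RPKM and feeders at 1.45 to 1.86 RPKM. For Shmt1 and Mthfd1 it was not the nearest. Without SI3, 8 of 9 passed. When any of the 3 feeder libraries was left out, or without the filter on low values, only Phgdh did. Without SI1, 3 passed, and without SI2 or SI4, 2, Phgdh and Shmt2 among them each time. Gldc was not tested without SI1, SI2 or SI4, because it then missed the filter on low values. In these fits the calls over all genes moved widely as well, over the range in the last section. The 35.8% above holds for the fit with all libraries only.

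SC iPS cells were set beside SC clones at d27, which still had the drug. No gene of the 10 passed, with 1.62% of 11675 genes called and 1 of the 10 (Gcat) and 3491 of all genes at an unadjusted p under 0.05. Gcat had 10.5, 5.03, 7.30 and 7.36 RPKM in SC iPS clones, against 12.5, 12.6, 10.1 and 8.50 RPKM at d27, and was at log2 -0.50 ± 0.20 (adjusted p = 0.144). Gldc was at log2 0.32 ± 0.36, Shmt1 at 0.28 ± 0.34 and Tdh at 0.18 ± 0.25. Rescaling by the median ratio moved the median of all genes by log2 0.112 in this comparison, from -0.08 to 0.04, and Tdh was then at 0.31 and Gcat at -0.38. In SC2, Tdh stood at 30.5 RPKM as iPS cells and 23.6 RPKM at d27, so its low values at d22 and d23 were not seen at these times.

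The balance of cytosolic to mitochondrial enzymes is given as the ratio of their RPKM within a library, with no test. Shmt1 over Shmt2 had a median of 1.02 in SC iPS clones (0.723 to 1.18) and 0.0603 in feeders (0.0561 to 0.0644). At d23 it was 0.808 in SC clones (0.340 to 0.894) and 0.152 in SI clones (0.0401 to 0.193), without overlap. Mthfd1 over Mthfd2 had a median of 2.41 in SC iPS clones and 0.478 in feeders. It was highest in SI clones at d21, at a median of 5.43 (1.92 in SI3 to 7.15 in SI1), and at d23 it was 2.62 in SC clones (2.12 to 2.95) and 1.26 in SI clones (0.280 in SI3 to 1.63 in SI4). Gldc over Phgdh, glycine breakdown against the entry to serine synthesis, had a median of 2.35 in SC iPS clones and 0.0063 in feeders, and of 2.30 in SC and 0.136 in SI clones at d23.

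**Figure D4:**
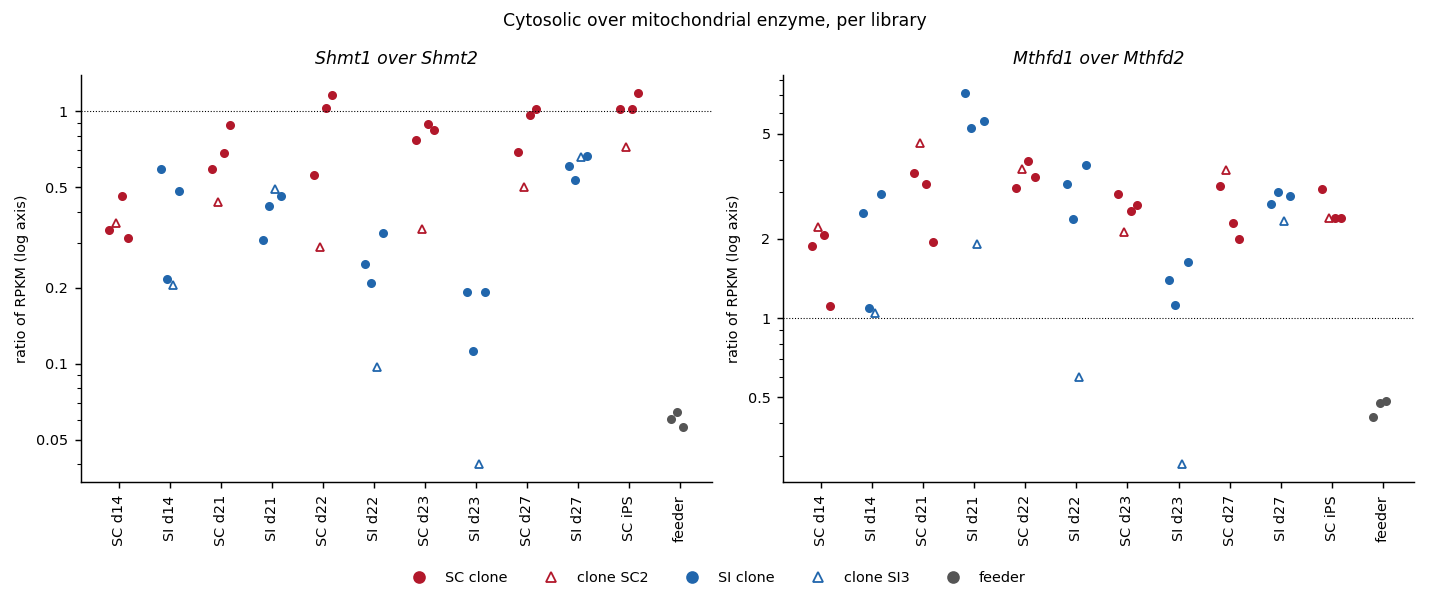
Ratio of the RPKM of the cytosolic to the mitochondrial enzyme on a log axis, Shmt1 over Shmt2 left and Mthfd1 over Mthfd2 right, in each library by group, with open triangles for clones SC2 and SI3 and a dotted line at 1. Shmt1 over Shmt2 is at 0.193 or less in SI clones at d23 and at 0.340 or more in SC clones.

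Related gene lists were read beside the 10 genes by counts alone, to be set against the share of all genes called: 41.2% higher and 38.8% lower in SC iPS cells against feeders, 23.0% and 19.5% in SC against SI clones at d23, and 22.7% and 32.0% in SI clones at d23 against d21. At d23 the list counts between SC and SI clones depended on single libraries. Without any of SC1, SC3, SC4, SI2, SI3 or SI4 no gene of the 6 related lists passed, with 2 to 9 calls over all genes, and without SC2 there were 7978. The partners of Gldc in the glycine cleavage system, Amt, Gcsh and Dld, were all higher in SC iPS cells than in feeders, and Amt had 15.4 ± 4.1 RPKM in SC iPS cells (SD, n = 4) and 0.26 ± 0.08 in feeders (SD, n = 3). At d23, 2 of these 3 were higher in SC than in SI clones: Amt (10.3 ± 4.3 RPKM in SC and 2.67 ± 1.55 RPKM in SI clones, log2 1.64, adjusted p = 0.0277) and Gcsh (28.1 ± 7.3 RPKM in SC and 15.9 ± 2.0 RPKM in SI clones, log2 0.75, adjusted p = 0.0292; SD, n = 4 each). Dld, which other mitochondrial complexes share, had 37.5 ± 2.3 RPKM in SC and 37.4 ± 0.9 RPKM in SI clones (SD, n = 4 each). In SI clones none of the 3 passed between d23 and d21 (median log2 -0.18, with -0.12 over all genes).

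Genes of purine synthesis, which takes up folate-bound carbon, were higher at d23 in SC than in SI clones in 9 of 12 cases and lower in 0, with a median log2 of 0.96 and -0.01 over all genes. The share of all genes called higher was 23.0%, and the count was 10 without SC2, 7 without SI1 and 0 without any of the other 6 libraries. Gart, which uses a folate in this pathway, had 69.9 ± 29.9 RPKM in SC and 14.9 ± 1.6 RPKM in SI clones (SD, n = 4 each; log2 2.02), and Prps1 31.1 ± 14.6 RPKM in SC and 5.71 ± 0.75 RPKM in SI clones (log2 2.09), with an adjusted p of 0.0221 for both. In SI clones 8 of 12 were lower and 1 higher at d23 than at d21, with Ppat, which starts the pathway, at 5.90 ± 1.84 RPKM at d23 and 36.8 ± 3.9 RPKM at d21 (SD, n = 4 each; log2 -2.49, adjusted p = 8.34e-05). In SC iPS cells 10 of 12 were higher and 1 lower than in feeders. All 12 proliferation markers moved in these same directions in each of the 3 comparisons, and their part in the purine counts was not tested.

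Of 16 folate genes tested, 5 were higher and 3 lower in SC than in SI clones at d23, close to the 23.0% and 19.5% of all genes and thus no result about the list. Aldh1l2, a mitochondrial folate dehydrogenase, was lower, at 2.56 ± 1.83 RPKM in SC and 9.29 ± 2.59 RPKM in SI clones (SD, n = 4 each; log2 -1.62, adjusted p = 0.0221). In SI clones between d23 and d21, 3 of 14 were higher and 5 lower, again close to the shares of all genes (22.7% and 32.0%). The largest fold among these was that of methionine synthase (Mtr), at 5.48 ± 0.02 RPKM at d23 and 40.8 ± 8.5 RPKM at d21 (SD, n = 4 each; log2 -2.67, adjusted p = 1.97e-05). In the methionine and transsulfuration list, 4 of 9 were lower there and 0 higher, beside 32.0% and 22.7% of all genes. Cth, the enzyme that releases cysteine from cystathionine, had 11.7 ± 2.0 RPKM at d23 and 85.5 ± 21.7 RPKM at d21 (SD, n = 4 each; log2 -2.73, adjusted p = 7.29e-05). Between SC and SI clones at d23, 1 of 8 of that list was higher and 1 lower.

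Of 12 genes of the amino acid response, 0 were higher and 3 lower in SC than in SI clones at d23, among them the transcription factors Atf5 (log2 -1.80, adjusted p = 0.0279) and Cebpb (log2 -1.28, adjusted p = 0.0221), and 2 were higher and 0 lower in SI clones at d23 than at d21. Without SI3 at d21, 8 were higher there and 0 lower, without clone SI3 at both times 7 were higher and 1 lower, and without SI1 at d23 3 were higher. In SC iPS cells 9 of 12 were lower than in feeders and 0 higher, beside 38.8% of all genes called lower and 41.2% called higher. Of 9 transport and breakdown genes for serine, glycine and threonine, 1 was higher in SC than in SI clones at d23, the transporter Slc1a5, at 19.4 ± 8.1 RPKM in SC and 5.29 ± 0.34 RPKM in SI clones (SD, n = 4 each; log2 1.58, adjusted p = 0.0221). It was lower in SI clones at d23 than at d21, where it had 21.3 ± 1.5 RPKM (log2 -1.82, adjusted p = 1.71e-05). Slc6a9 of the same list was higher there, at 2.38 ± 0.92 RPKM at d23 and 0.86 ± 0.54 RPKM at d21 (log2 0.86, adjusted p = 0.0138). Without each library or clone in turn, 2 to 5 genes of the list were higher at d23 and 1 was lower. With all libraries, 22.7% of all genes were called higher and 32.0% lower.

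**Figure D5:**
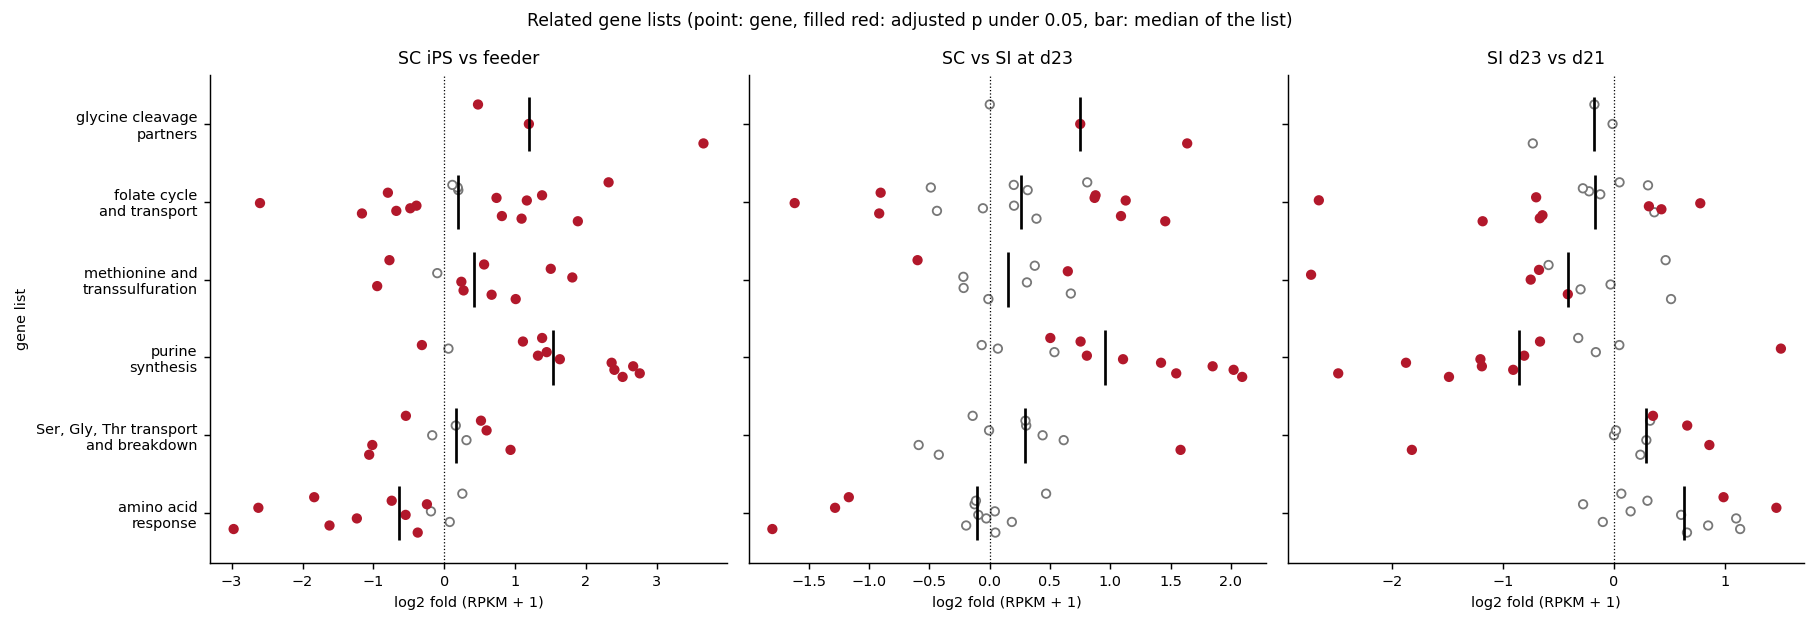
Log2 fold of each tested gene of 6 related lists in SC iPS cells against feeders, SC against SI clones at d23 and SI clones at d23 against d21, with filled red points for an adjusted p under 0.05 and a bar for the list's median. The median of purine synthesis is at 1.54, 0.96 and -0.86 in the 3 panels.

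Likeness across the means of the 12 groups is given as a description, because groups share clones. Pearson's r of log2(RPKM + 1) was 0.979 for Shmt1 and Tdh, 0.964 for Shmt1 and Gldc, 0.955 for Mthfd1 and Gldc, and 0.923 for Gcat and Tdh. It was 0.878 for Mthfd2 and Phgdh, 0.872 for Psph and Phgdh, and 0.928 for Shmt2 and Psat1. The lowest of the 45 pairs were Mthfd1 and Phgdh (-0.123), Phgdh and Gldc (-0.086) and Mthfd2 and Mthfd1 (-0.07). With Tdh, Gcat, Gldc, Shmt1 and Mthfd1, r ran from 0.607 (Gldc) to 0.841 (Gcat) for Psat1. For Shmt2 it ran from 0.484 (Gldc) to 0.741 (Gcat). With Phgdh, Psph and Mthfd2, r ran from 0.483 (Mthfd2) to 0.648 (Psph) for Psat1. For Shmt2 it ran from 0.65 (Mthfd2) to 0.741 (Phgdh and Psph). Over all genes with at least 5 RPKM in their highest group mean, those most like Tdh were Thop1 (r = 0.991), Slc35f2 (0.982), Dctpp1 (0.98), Nr0b1 (0.979) and Shmt1 (0.979). Those most like Gldc were Espl1 (r = 0.993), Arrb2 (0.991), Rpl31-ps20 (0.991), Lig3 (0.99) and Thoc6 (0.99), of which Rpl31-ps20 is a pseudogene, whose reads may not be separable from those of its parent gene. Those most like Mthfd2 were Slc7a5 (r = 0.921), Tars (0.897), Aars (0.893), Hspa9 (0.886) and Vps26a (0.881).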

How the data were processed

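RNA from the 47 libraries was purified on RNeasy columns and sequenced from TruSeq libraries, per the labels. The authors deposited 1 value per gene and library with 2 decimals and no named unit. These deposited values behave as RPKM, since multiplied by exon gigabases (GENCODE M21, 20750 genes) they add up to 0.788 to 0.998 in each library. The submitters' processing notes name CASAVA 1.8 and mm9 but give no role for either; aligner, annotation and filters: not given in the sources used here. Depth was estimated, up to a whole multiple, from the steps between values of 625 genes with at most 600 exon bases, which gave 27.0 to 97.8 megareads, with a median of 68.0, in 42 libraries. RPKM sums were 189172.4 to 245694.8, and 10909 to 11931 genes reached 1 RPKM. Days with and without doxycycline follow the characteristics, since the treatment text states d22 and d23 differently. The feeder libraries differed beyond sampling noise and count as 3.

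For each comparison a linear model of log2(RPKM + 1) was fitted with limma 3.58.1 (R 4.3.3) to the libraries compared, with empirical Bayes moderation that follows the trend of variance on mean. A gene was tested if it had at least 1 RPKM in as many libraries as the smaller group holds. P-values are two-sided with Benjamini-Hochberg adjustment, and the threshold was 0.05. The fits were tested on simulated data. Alternatives were a pseudocount of 0.1, no filter, median-ratio rescaling, a replicate block, all 47 libraries in 1 fit and leaving out each library. Leaving out clone SC2 or SI3, list counts without each library, and the d23 against d22 comparisons were added after seeing the data. Titles name the clone at each time, so times of a class are paired. Deviations from the group means correlated at -0.383 to 0.91 between libraries of the same clone (median 0.485, 44 pairs). The 10 genes, the lists and the rule for named genes were chosen with earlier results of these data known. Each comparison names Tdh, Gldc, every gene of the 10 past the threshold and otherwise up to 3 with the largest fold. From a list, up to 2 genes past the threshold and 1 of the rest could be named, and 1 such gene is not reported here. Likeness was taken among genes with at least 5 RPKM in their highest group mean. Other software was Python 3.11.15 with pandas 2.3.3, numpy 2.4.6, scipy 1.17.1, and matplotlib 3.10.9 for figures.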

Additional observations from a re-analysis of the deposited data

Results flagged for a closer look

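In 10 of 110 groups of 4 libraries, 1 library stood apart by Dixon's criterion, which chance passes in about 1 of 20 groups. SI3 accounted for 7 of these. At d21 it had Psat1 at 75.0 RPKM (43.4 to 48.0 in the other SI clones), Shmt2 at 51.5 RPKM (26.4 to 29.8) and Mthfd2 at 26.9 RPKM (5.22 to 8.55). It had Phgdh at 16.7 RPKM at d22 (9.6 to 10.7 in the others) and 17.6 RPKM at d23 (10.6 to 10.9), Psat1 at 38.4 RPKM at d23 (16.0 to 17.6) and Psph at 14.8 RPKM at d27 (11.6 to 12). SC2 at d23 had Gcat at 2.66 RPKM (7.77 to 8.37 in the other SC clones) and Mthfd2 at 11.3 RPKM (19.1 to 19.96). SC3 at d14 had Psat1 at 63.0 RPKM (50.7 to 52.6).

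The d23 against d21 change differed between SC and SI clones, tested with clones as a block, by log2 3.03 for Tdh, 2.71 for Gldc, 1.77 for Shmt1, 1.67 for Gcat, 1.25 for Mthfd1 and 0.76 for Psat1. From d22 to d23 the level of Gldc was higher at d23 in every SC clone (median change 15.2 RPKM) and lower in every SI clone (median change -0.98 RPKM), and this difference between the classes was not tested.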

How the results depend on the processing

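Rescaling by the median ratio kept every count of calls among the 10 genes. With clones as a block (44 pairs of the same clone), the count was 5 for SC d22 against d21, 2 for SC d27 against d21, 1 for SC d23 against d22, 5 for SI d23 against d22 and 6 for the difference of changes. No call within a class was lost under the block. Between classes or against feeders the numbers pair nothing (r -0.805 to 0.318, median -0.074, 26 pairs). There the block left 1 call for SI d23 against feeders. All 47 libraries in 1 fit gave 6 at d22 between the classes, 4 for the difference, and 1 each for SI d21 against d14, SC d23 against d21, SI d27 against d21 and SI d23 against d22. No filter gave 0 between the classes at d23, 1 for SC d21 against d14 and 1 for SI d23 against feeders. A pseudocount of 0.1 gave 1 for the difference. Tdh turned to log2 -0.01 in SI d21 against d14 (rescaling) and to 0.031 in SC d23 against d22 (pseudocount 0.1; 0.035 by rescaling), all near 0. Without each library or clone in turn, counts ran 0 to 1 at d21, 0 to 6 at d22 and 0 to 8 at d23 between the classes, 1 to 3 for SC d21 against d14, 0 to 2 for SI d21 against d14, 0 to 2 for SC and 5 to 7 for SI at d22 against d21, 6 to 8 for SI d23 against d21, 0 to 8 for SI d27 against d21, 0 to 6 for the difference, 7 to 8 for SC iPS against feeders, 1 to 8 for SI d23 against feeders and 0 to 4 for SI d23 against d22. Folds that changed sign ran -0.012 to 1.168 (Gldc) and -0.109 to 0.398 (Shmt1) for SC against SI at d14, -0.189 to 0.273 (Tdh, SI d21 against d14), -1.069 to 0.164 (Tdh, SC d22 against d21), -0.575 to 0.456 (Gldc, SC d23 against d21), -0.469 to 0.105 (Gldc, SC d27 against d21), -0.009 to 0.316 (Tdh, SC iPS against d27), and -0.842 to 0.391 (Tdh) and -0.009 to 1.298 (Gldc) for SC d23 against d22. None of these passed with all libraries of the comparison, and the cause was not tested. Over all genes, calls moved by more than 1.5 times as follows. Under the block they were 2373 for SC against SI at d23 (5021 without it), 4456 for SC d22 against d21 (976), 6798 for SI d22 against d21 (4497), 1600 for SC d23 against d21 (454), 1399 for SC iPS against d27 (189), 387 for SI d23 against feeders (4207), 5164 for SI d23 against d22 (203), 2944 for the difference (0), 1564 for SC d23 against d22 (0), 1330 for SC d27 against d21 (1), 9 for SI d21 against d14 (0) and 0 for SC against SI at d27 (73). Without the filter they were 2 for SC against SI at d23, 3 at d27 and 3 at d21, 509 for SC d22 against d21, 246 for SC d23 against d21, 33 for SC iPS against d27, 2625 for SI d23 against feeders, 2 for SI d23 against d22, 8 for SC d23 against d22, 4 for SI d27 against d21 and 2 for SI d21 against d14. With all 47 libraries in 1 fit they were 81, 3474 and 143 for SC against SI at d21, d22 and d27, 1621 and 1906 for SC d22 and d23 against d21, 7 for SC d27 against d21, 2208 for SI d21 against d14, 1372 for SI d27 against d21, 1872 for the difference, 2131 for SC iPS against d27, 1350 for SC d23 against d22 and 686 for SI d23 against d22. A pseudocount of 0.1 gave 4 for the difference, and rescaling gave 6 for SC d23 against d22. Leaving out a library or clone moved them over 2 to 7978 for SC against SI at d23, 0 to 222 at d21, 0 to 4147 at d22 and 0 to 2796 at d27, 0 to 1664 for SI d21 against d14, 30 to 1205 for SC d22 against d21, 2908 to 6803 for SI d22 against d21, 104 to 823 for SC d23 against d21, 0 to 5735 for SI d27 against d21, 0 to 4156 for the difference, 9 to 2766 for SC iPS against d27, 668 to 7617 for SI d23 against feeders, 0 to 107 for SC d23 against d22 and 0 to 4030 for SI d23 against d22. Depth limits Tdh at its lowest values, where 3 reads amount to 0.0117 to 0.0425 RPKM.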
